A study of Mus musculus with 12 samples.

Results

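The Nodal pathway genes described here are Nodal, Gdf3, Inhbb, Lefty1, Lefty2, Acvr2b and Smad7. These 7 genes were listed by name for their place in the pathway, out of 55401 genes in the count files. No threshold on a measured value was used, but earlier results of these data were known when the list was made. The rule behind the list speaks of 8 genes and names 7, so 1 further gene may belong to it and was not analysed here as a member. All 7 matched an annotated mouse gene and all 7 were among the 17468 genes with enough counts to be tested.

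Nodal is a secreted ligand of the TGF-beta superfamily that patterns the early mouse embryo and acts in the epiblast. It binds activin receptors together with an EGF-CFC co-receptor, the receptors phosphorylate SMAD2 and SMAD3, and these enter the nucleus with SMAD4 and act with partners such as FOXH1. The pathway switches on its own ligand Nodal and its own inhibitors, the Lefty proteins outside the cell and SMAD7 inside it. These genes can therefore report on the pathway as well as acting in it.

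Bulk RNA-seq was performed on 3 lines of mouse totipotent potential stem (TPS) cells and 3 lines of mouse extended pluripotent stem (EPS) cells. Every line was sequenced as 2 technical replicates, which made 12 libraries. TPS cells grew on feeder cells in a medium that the labels call VCED, built on 4C basic medium. The study describes the same kind of culture as holding a retinoic acid receptor agonist (CD1530), a histone deacetylase inhibitor (VPA), a DOT1L inhibitor (EPZ004777) and a GSK3 inhibitor (CHIR). EPS cells also grew on feeder cells, in LCDM medium. The labels give neither the strain nor the origin of any line, so cell type and culture medium differ together between the groups and cannot be told apart. Both libraries of each line were added together, which left n = 3 lines in each group, and a p-value measures the spread between these lines only.

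Library totals ranged from 13676051 to 21821707 counts. Each line reached between 29877215 and 38466294 counts once its libraries were summed. Marker genes were compared with the labels. All 9 genes of a list for the 2-cell stage, Zscan4c and Zscan4d among them, were higher in TPS lines, with a summed level of 274 to 369 CPM (counts scaled to the library total) against at most 0.163 CPM in EPS lines. Of 8 pluripotency genes, 5 were lower in TPS lines, beside 14.4% of all tested genes called higher and 7.34% called lower. The study describes the feeders in TPS culture as inactivated mouse embryonic fibroblasts. A list of 16 fibroblast genes, such as Col1a1 and Pdgfrb, is therefore also relevant. Its summed level was 6401, 3545 and 3745 CPM in TPS lines 1 to 3 and 334, 1322 and 1417 CPM in EPS lines 1 to 3, so the groups did not overlap. All 16 of these genes had a positive fold change and 11 were called higher, and none was at 0 in any line.

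Lefty1 and Lefty2 are neighbouring paralogs on chromosome 1 (GRCm38). Lefty1 lies at chr1:180935022-180938400 and Lefty2 at chr1:180893108-180899103, both on the plus strand. Their coding sequences differed at 84 of 1095 aligned bases, an identity of 92.3%, so reads from one can resemble the other. The stretch of 60 coding bases in which they differ most is shown because these bases let a sequencing read be assigned to one gene. It lies in exon 1 of 4 in both genes, at chr1:180935143-180935202 in Lefty1 and at chr1:180893217-180893276 in Lefty2, and capitals mark its 18 differing bases.
Lefty1: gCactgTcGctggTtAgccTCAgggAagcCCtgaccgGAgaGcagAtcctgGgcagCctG
Lefty2: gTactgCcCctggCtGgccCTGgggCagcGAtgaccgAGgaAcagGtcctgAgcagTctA
Of all stretches of 100 bases, the length of one sequenced read, 73 were common to the longest transcripts of both genes, which is 4.8% of those in Lefty1 and 3.07% of those in Lefty2. None of the other 5 genes shared such a stretch with another gene. How the authors counted reads that fit several genes is not given in the sources used here, so a small part of the Lefty counts could have been shared, dropped or moved between this pair.

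In TPS lines compared with EPS lines, 1 of the 7 genes was called higher, 1 was called lower and 5 passed the test in neither direction. Inhbb, which encodes a subunit of activin B, rose 1.66 on the log2 scale. Gdf3, a Nodal-related ligand, fell by 1.22. The Lefty pair had fold changes of opposite sign, 1.50 for Lefty1 and -1.27 for Lefty2, and neither passed the test. Nodal itself, the receptor gene Acvr2b and the inhibitory Smad7 stayed within 0.4 of 0 and did not pass. The test was edgeR's quasi-likelihood test with Benjamini-Hochberg adjustment over all 17468 genes and a threshold of 0.05. Among all tested genes, 14.4% were called higher and 7.34% lower, so 1 of 7 in each direction is near the background. In 1 gene, Inhbb, every TPS line was above every EPS line, as in 23.6% of all tested genes. In 1 gene, Gdf3, every TPS line was below every EPS line, as in 19.1% of tested genes. The median log2 fold change of the 7 genes was 0.29, beside 0.00 over all tested genes. In bulk RNA, fewer cells of a type and less RNA per cell cannot be told apart.

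**Figure D1:**
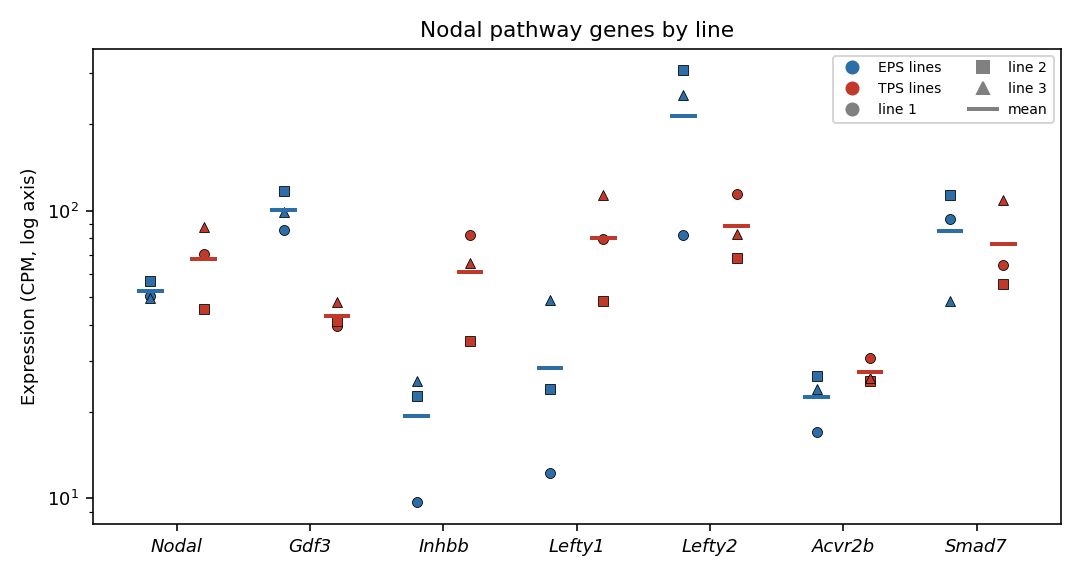
Expression of the 7 Nodal pathway genes in each line, in CPM on a log axis. Each point is a line with its technical replicates summed, its shape gives the line number, and each bar is the mean of 3 lines. Gdf3 and Inhbb are the genes whose TPS and EPS lines do not overlap.

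Among the ligands, Nodal (ENSMUSG00000037171.6, chr10:61417972-61425338, plus strand) was found at 70.8, 45.5 and 87.4 CPM in TPS lines 1 to 3 and at 50.6, 57.0 and 49.6 CPM in EPS lines 1 to 3. TPS line 3 was the highest and TPS line 2 the lowest of all 6, so the EPS lines sat inside the range of the TPS lines. The means were 67.9 ± 21.1 CPM in TPS and 52.4 ± 4.03 CPM in EPS lines (SD, n = 3 each). The log2 fold change was 0.37 with a standard error of 0.231 and an adjusted p of 0.282 by edgeR. It was 0.15 without TPS line 3 and 0.59 without TPS line 2, the lowest and highest values with one line left out. The TPS lines were spread about this ligand more widely than the EPS lines, with an SD of 21.1 against 4.03 CPM, a difference in spread that was not tested.

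Gdf3 (ENSMUSG00000030117.5, chr6:122605403-122610087, minus strand) encodes a TGF-beta superfamily ligand that signals with the EGF-CFC co-receptor and is expressed in pluripotent cells. It was measured at 39.6, 41.4 and 47.9 CPM in TPS lines 1 to 3 and at 85.5, 116.6 and 98.8 CPM in EPS lines 1 to 3. All TPS lines were low and close together, and the nearest EPS line, line 1, was still well above them. The mean fell from 100.3 ± 15.6 CPM in EPS to 42.9 ± 4.39 CPM in TPS lines (SD, n = 3 each), a log2 fold change of -1.22 with a standard error of 0.159 and an adjusted p of 0.00368 by edgeR. When any one line was left out, the log2 fold change lay between -1.35 and -1.12 and Gdf3 stayed below the threshold. The largest difference between technical replicates of a line was 0.24 on the log2 scale, well under the difference between the groups. Of the 8 pluripotency genes, 5 were also called lower, while Nanog, Sox2 and Zfp42 did not pass. The summed level of the list was 2804 to 3522 CPM in TPS and 6007 to 7749 CPM in EPS lines, and its part in the Gdf3 value was not tested.

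Inhbb (ENSMUSG00000037035.5, chr1:119415465-119422248, minus strand) encodes the inhibin beta B subunit, which forms activin B as a homodimer. Its levels were 82.1, 35.2 and 65.5 CPM in TPS lines 1 to 3 and 9.70, 22.6 and 25.5 CPM in EPS lines 1 to 3. The groups did not overlap, although TPS line 2 was closer to the EPS lines than to the other TPS lines. The means were 61.0 ± 23.8 CPM in TPS and 19.3 ± 8.42 CPM in EPS lines (SD, n = 3 each). Inhbb therefore rose 1.66 on the log2 scale, with a standard error of 0.420 and an adjusted p of 0.0293 by edgeR. This call did not hold without TPS line 1 (1.38, adjusted p = 0.0839), TPS line 3 (1.60, adjusted p = 0.0778), EPS line 1 (1.31, adjusted p = 0.0554) or EPS line 2 (1.76, adjusted p = 0.0703) in edgeR. The direction was the same each time.

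The fibroblast list moved with Inhbb. Within TPS lines, line 1 was highest and line 2 lowest in both the summed fibroblast level and Inhbb, and within EPS lines, line 1 was lowest and line 3 highest in both. Inhba, which encodes the other main activin subunit, had 48.7, 29.9 and 51.3 CPM in TPS lines 1 to 3 and 4.34, 15.9 and 22.3 CPM in EPS lines 1 to 3. It too was lowest in TPS line 2 and in EPS line 1 of its group, and its log2 fold change of 1.61 did not pass the test (adjusted p = 0.0646 by edgeR), though it did without EPS line 1 or EPS line 3 and with DESeq2 (adjusted p = 0.00618). The activin antagonist Fstl3 was also higher in every TPS line, 7.89, 7.05 and 5.21 CPM against 0.816, 3.62 and 1.11 CPM, without passing the test (1.86, adjusted p = 0.0530 by edgeR) unless EPS line 2 was left out or DESeq2 was used (adjusted p = 0.00271), and 47.3% of its exonic length is shared with Prss57 on the opposite strand. Unlike the fibroblast sum, Inhba was highest in TPS line 3, and Fstl3 was lowest in TPS line 3 and highest in EPS line 2. TPS lines 2 and 3 were close in the fibroblast sum (3545 and 3745 CPM) but further apart in Inhbb (35.2 and 65.5 CPM). The part of fibroblast RNA in the Inhbb, Inhba and Fstl3 values was not tested. For Gdf3 the groups differed in the opposite direction to the fibroblast list, although among EPS lines both were lowest in line 1.

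**Figure D2:**
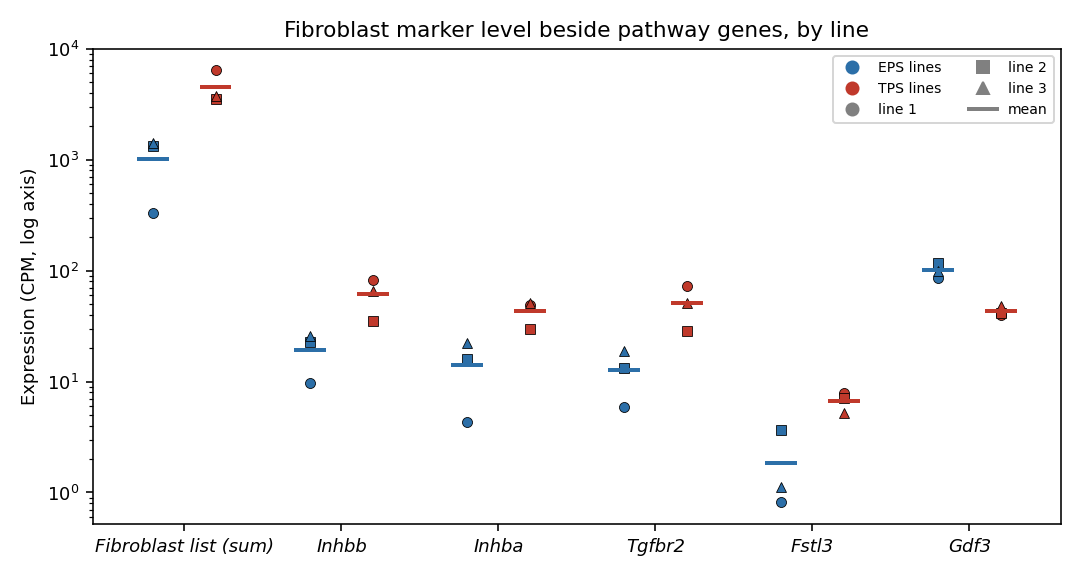
Summed level of the 16 fibroblast genes beside Inhbb, Inhba, Tgfbr2, Fstl3 and Gdf3 in each line, in CPM on a log axis. Points are lines and bars are means of 3 lines. Inhbb, Inhba, Tgfbr2 and Fstl3 are lowest in EPS line 1, which also has the lowest fibroblast level. Gdf3 is higher in all EPS lines than in TPS lines, and among EPS lines it is also lowest in line 1.

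Among the extracellular antagonists, Lefty1 (ENSMUSG00000038793.8) is known in the embryo for the left-right midline and the anterior visceral endoderm, and it is expressed in pluripotent stem cells. Lefty1 was found at 79.7, 48.4 and 112.9 CPM in TPS lines 1 to 3 and at 12.3, 24.0 and 48.8 CPM in EPS lines 1 to 3. The groups touched at a single point, where TPS line 2 lay just under EPS line 3. The means were 80.3 ± 32.2 CPM in TPS and 28.4 ± 18.7 CPM in EPS lines (SD, n = 3 each), with a log2 fold change of 1.50, a standard error of 0.502 and an adjusted p of 0.0688 by edgeR. Left-out lines moved the log2 fold change of Lefty1 between 1.11 and 2.13 and its edgeR adjusted p between 0.0270 and 0.191, the lower one without EPS line 3, where Lefty1 passed. With DESeq2 on the same lines, Lefty1 passed as well (1.48, adjusted p = 0.00879). Lefty1 and the summed fibroblast level were both lowest in line 2 among TPS lines. Among EPS lines both were lowest in line 1 and highest in line 3. The highest TPS line differed, line 3 for Lefty1 and line 1 for the fibroblast sum. The part of fibroblast RNA in the Lefty1 value was not tested.

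Lefty2 (ENSMUSG00000066652.5) encodes the closely related antagonist known from the left lateral plate mesoderm. It stood at 113.9, 68.7 and 83.0 CPM in TPS lines 1 to 3 and at 81.9, 307.0 and 251.5 CPM in EPS lines 1 to 3. EPS lines 2 and 3 were far above every TPS line, whereas EPS line 1 lay among the TPS lines. The means were 88.5 ± 23.1 CPM in TPS and 213.5 ± 117.2 CPM in EPS lines (SD, n = 3 each), a log2 fold change of -1.27 with a standard error of 0.443 and an adjusted p of 0.0782 by edgeR. Without EPS line 1, the value was -1.68 with an adjusted p of 0.0113 by edgeR, and with DESeq2 on all lines it was -1.29 with an adjusted p of 0.0140. EPS line 1 also had the lowest Lefty1, Gdf3, Inhbb and Acvr2b levels among the EPS lines.

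The question of whether the antagonists move alike was asked within each line. Lefty1 made up 41.2%, 41.4% and 57.6% of the combined Lefty counts in TPS lines 1 to 3. In EPS lines 1 to 3 its share was 13.0%, 7.25% and 16.3%. No line of one group reached the range of the other, and neither did any single library, with shares of 38.5% to 58.1% in the 6 TPS libraries and 7.12% to 19.5% in the 6 EPS libraries. As a log2 ratio of counts, Lefty1 to Lefty2 was -0.52, -0.50 and 0.44 in TPS lines and -2.74, -3.68 and -2.36 in EPS lines. The group means of this log2 ratio differed by 2.73, with p = 0.1 in a two-sided exact permutation test over the 6 lines, the smallest p that 3 against 3 lines can give. Leaving out one line at a time gave differences between 2.36 and 3.01. The ratio compares groups and not the amounts of both transcripts, since Lefty2 has the longer transcript. It was a combination of opposite shifts in which neither gene alone passed the edgeR test.

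**Figure D3:**
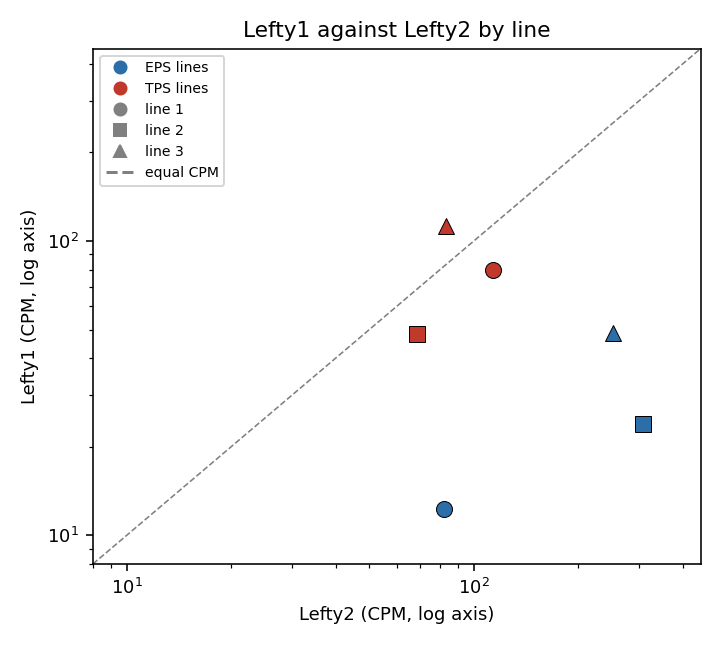
Lefty1 against Lefty2 in each line, both in CPM on log axes, with a dashed line where both are equal. TPS lines lie near the dashed line, with TPS line 3 above it, and all EPS lines lie below it with more Lefty2 than Lefty1.

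The combined Lefty counts were also set against Nodal, the ligand they block. The log2 ratio of Lefty1 plus Lefty2 to Nodal was 1.45, 1.36 and 1.16 in TPS lines and 0.90, 2.54 and 2.60 in EPS lines. EPS line 1 was the lowest of all 6 and the other EPS lines the highest, so the groups overlapped. The difference was -0.68 on the log2 scale (exact permutation test, two-sided, p = 0.4), and it lay between -1.24 and -0.39 when one line was left out.

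Acvr2b (ENSMUSG00000061393.14, chr9:119402118-119434995, plus strand) encodes a type II receptor that binds activins and Nodal. It was found at 30.9, 25.5 and 26.2 CPM in TPS lines 1 to 3 and at 17.0, 26.6 and 24.0 CPM in EPS lines 1 to 3. EPS line 1 was low and the remaining 5 lines lay close together. The means were 27.5 ± 2.93 CPM in TPS and 22.5 ± 4.95 CPM in EPS lines (SD, n = 3 each), a log2 fold change of 0.29 with a standard error of 0.205 and an adjusted p of 0.351 by edgeR. With one line left out, the log2 fold change lay between 0.09, without EPS line 1, and 0.40, without EPS line 2. The antisense gene Gm47320 lies over Acvr2b in the annotation but shares 0 exonic bases with it, so reads on exons are not in common.

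Smad7 (ENSMUSG00000025880.11, chr18:75367529-75395935, plus strand) encodes an inhibitory SMAD that binds activated type I receptors and recruits ubiquitin ligases to them. It was measured at 64.5, 55.7 and 109.2 CPM in TPS lines 1 to 3 and at 93.5, 113.5 and 48.7 CPM in EPS lines 1 to 3. Line 3 was the highest TPS line and the lowest EPS line, and the groups overlapped through most of their range. The means were 76.5 ± 28.7 CPM in TPS and 85.2 ± 33.2 CPM in EPS lines (SD, n = 3 each), and the log2 fold change of -0.16 had a standard error of 0.353 and an adjusted p of 0.781 by edgeR. Its sign turned without TPS line 2 (0.02) and without EPS line 2 (0.09).

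The lowest count of any member in a single library was 100, for Inhbb, and the highest was 5816, for Lefty2. Technical replicates of a line differed at most by 0.36 for Nodal, 0.24 for Gdf3, 0.44 for Inhbb, 0.36 for Lefty1, 0.47 for Lefty2, 0.35 for Acvr2b and 0.30 for Smad7, all on the log2 scale. For Nodal, Acvr2b and Smad7 this largest technical difference was about as large as, or larger than, the fold change between groups. For Gdf3, Inhbb, Lefty1 and Lefty2 it was smaller.

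To compare levels between genes, counts were divided by the exonic length of each gene and scaled to a common total of transcripts (TPM). In TPS lines the order per length was Lefty1 (128.4 ± 51.2), Lefty2 (95.2 ± 23.5), Nodal (91.1 ± 27.9), Gdf3 (49.9 ± 5.30), Smad7 (47.6 ± 17.9), Inhbb (40.2 ± 15.2) and Acvr2b (19.7 ± 1.84 TPM, SD, n = 3 lines). Neighbours in this order overlapped over their lines except Nodal with Gdf3 and Inhbb with Acvr2b. In EPS lines the order per length was Lefty2 (208.2 ± 122.9), Gdf3 (102.9 ± 23.3), Nodal (61.8 ± 8.38), Smad7 (46.1 ± 18.1), Lefty1 (41.2 ± 29.4), Acvr2b (14.3 ± 4.21) and Inhbb (11.5 ± 5.70 TPM). Here the only neighbours whose lines lay apart were Gdf3 and Nodal. By mean level per length, Lefty1 was therefore at rank 1 in TPS and rank 5 in EPS lines, and Gdf3 was above Nodal in EPS lines and below it in TPS lines.

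**Figure D4:**
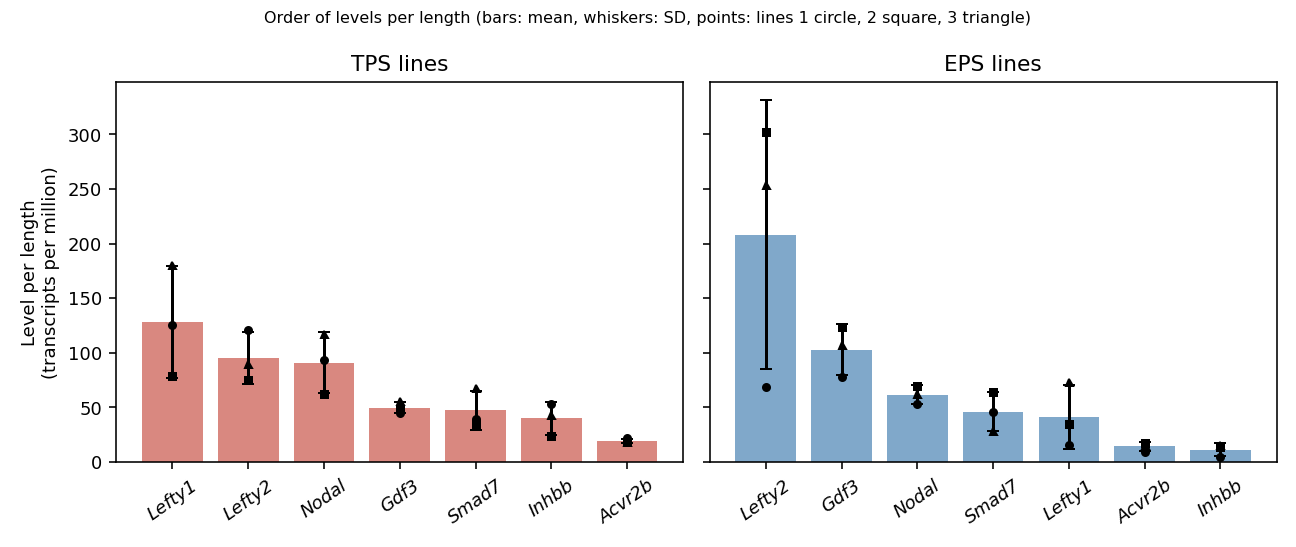
Level per length of the 7 genes in TPS lines (left) and EPS lines (right), in TPM, ordered by mean. Bars are means of 3 lines, whiskers are SD and points are lines. By mean, Lefty1 leads in TPS and Lefty2 in EPS lines, and the lines of each overlap with those of the next gene.

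The other genes of the Nodal and activin pathway were taken from a list of 40 genes, of which 36 were tested. Of these, 3 were called higher in TPS lines, 7 lower and 26 in neither direction, beside 14.4% and 7.34% over all tested genes, and the list's median log2 fold change was 0.31. Gdf1, Acvr1c, Cfc1 and Cer1 had too few counts to test. Gdf1 had 0 counts in every line, and the annotation places all its exons within exons of Cers1, where reads cannot be told apart.

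Among receptors and co-receptors, 2 genes were lower and 1 was higher. Tdgf1, the EGF-CFC co-receptor of Nodal and Gdf3, had 506, 659 and 573 CPM in TPS lines 1 to 3 and 1229, 1287 and 764 CPM in EPS lines 1 to 3. It fell by 0.92 on the log2 scale (SE 0.218, adjusted p = 0.0239 by edgeR), without overlap between groups. Acvr1b, the activin type I receptor ALK4, was at 53.7 ± 8.53 CPM in TPS and 83.5 ± 16.3 CPM in EPS lines (SD, n = 3 each), a log2 fold change of -0.64 with adjusted p = 0.0461 by edgeR. The calls of Tdgf1 and Acvr1b were each lost without TPS line 1 or 3 or EPS line 1 or 2, with edgeR adjusted p up to 0.0773 and 0.141. Tgfbr2, the TGF-beta type II receptor, which Nodal does not use, rose 2.00 (50.7 ± 22.3 against 12.7 ± 6.52 CPM, SD, n = 3 each, adjusted p = 0.0236 by edgeR), and its call was lost without TPS line 1 or 3 or EPS line 2. Its lines followed the same order as those of Inhbb and of the fibroblast sum, line 1 highest and line 2 lowest in TPS, line 1 lowest and line 3 highest in EPS, and the part of fibroblast RNA was not tested. The activin type II receptor Acvr2a (0.26, adjusted p = 0.467 by edgeR) and the TGF-beta type I receptor Tgfbr1 (0.37, adjusted p = 0.184 by edgeR) did not pass.

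Of the signal transducers, the partner Foxh1 passed. Foxh1, a forkhead factor that brings activated SMADs to DNA, had 29.8, 26.2 and 22.8 CPM in TPS lines 1 to 3 and 45.7, 44.1 and 48.4 CPM in EPS lines 1 to 3. It fell by 0.81 (SE 0.154, adjusted p = 0.0114 by edgeR) and was called in all 6 fits that left out a line. The receptor-regulated Smad2 (log2 fold change 0.10, adjusted p = 0.649) and Smad3 (0.55, adjusted p = 0.0781) and the common Smad4 (0.03, adjusted p = 0.903) did not pass in edgeR.

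The 2 convertases that cleave ligand precursors changed in opposite directions. Furin rose 1.08 on the log2 scale, from 33.5 ± 7.27 CPM in EPS to 71.1 ± 8.58 CPM in TPS lines (SD, n = 3 each, adjusted p = 0.00936 by edgeR). Pcsk6, also called PACE4, fell by 0.77, from 63.1 ± 7.72 CPM in EPS to 37.0 ± 4.03 CPM in TPS lines (SD, n = 3 each, adjusted p = 0.0136 by edgeR). Furin and the summed fibroblast level were both highest in TPS line 1 and lowest in EPS line 1, while the order of the remaining lines differed, with Furin at 79.3, 71.7 and 62.2 CPM in TPS lines 1 to 3 and 26.2, 40.8 and 33.5 CPM in EPS lines 1 to 3. The part of fibroblast RNA in the Furin value was not tested. The Furin call held in all 6 fits without a line, and that of Pcsk6 in 5, with an adjusted p of 0.0520 in edgeR without TPS line 3.

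Of 12 intracellular inhibitors other than Smad7, 1 was called higher and 2 lower. Dact2, which promotes the turnover of Nodal receptors, fell by 1.87, from 90.7 ± 5.93 CPM in EPS to 24.8 ± 4.59 CPM in TPS lines (SD, n = 3 each, adjusted p = 0.00146 by edgeR), and was called in all 6 fits without a line. Tgif1, a SMAD corepressor, fell by 0.66 (adjusted p = 0.0235 by edgeR). Pmepa1, a TGF-beta-induced inhibitor, rose 0.80 (adjusted p = 0.0423 by edgeR). The Tgif1 and Pmepa1 calls were each lost in 4 of the 6 fits, Tgif1 without line 1 or 2 of either group and Pmepa1 without line 1 or 3 of either group. Pmepa1 had 43.2, 32.6 and 49.4 CPM in TPS lines 1 to 3 and 23.2, 29.8 and 18.9 CPM in EPS lines 1 to 3. Like the summed fibroblast level, it was higher in every TPS line and lowest in line 2 of these. The order of the remaining lines differed. The part of fibroblast RNA in the Pmepa1 value was not tested.

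Among the other ligand subunits, only Inhbe passed, at low counts of 4, 4 and 3 in TPS lines and 65, 47 and 66 in EPS lines (log2 fold change -4.12, adjusted p = 0.00214 by edgeR). None of the 3 tested extracellular antagonists other than the Lefty genes passed the main edgeR test, and neither did any of 6 mesendoderm target genes of the pathway.

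**Figure D5:**
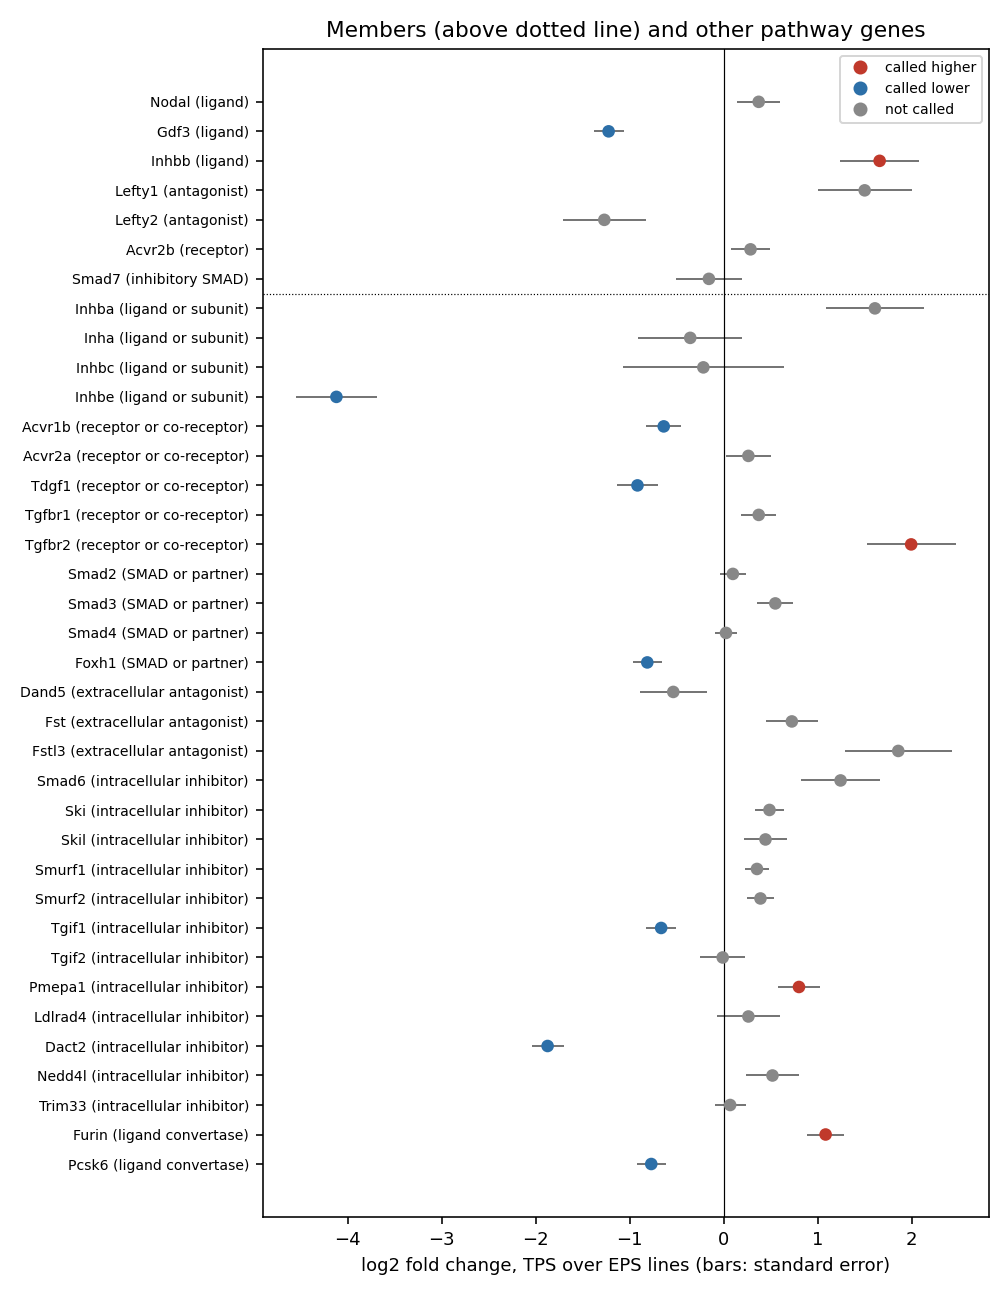
Log2 fold change of TPS over EPS lines for the 7 members (above the dotted line) and the tested pathway genes other than target genes, labelled by role, with standard errors from the edgeR fit. Red points were called higher, blue points lower and grey points not called. Calls of both colours occur among ligands, receptors, convertases and intracellular inhibitors.

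The genes whose lines varied most like Nodal were ranked by Pearson's r of log2(CPM + 1) over the 6 lines among 14594 tested genes with a mean of at least 1 CPM. They were Pak1 (r = 0.984), Agtpbp1 (0.978), Gc (0.972), Rab21 (0.971) and Atxn7l1 (0.957). For Lefty1 they were Slc38a6 (0.995), Riox2 (0.995), Wdpcp (0.993), Zfpm2 (0.992) and Flrt2 (0.991). No member or listed pathway gene was in either set. These values rest on 6 points and are given as a description only.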

How the data were processed

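RNA was enriched with oligo(dT) and sequenced as paired-end reads of 100 bases. The authors trimmed reads with fastp 0.19.7, aligned them with STAR 2.7.3a to GRCm38.p6 and deposited raw counts per gene. The counting tool, annotation, use of strand and treatment of reads fitting several places are not given in the sources used here. Of 55401 gene identifiers, 55141 matched GENCODE M21 (GRCm38), 54349 of them with the version. Symbols, coordinates, exonic lengths and the printed sequences come from that annotation and genome.

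Here, the counts of the 2 technical replicates of each line were summed, and 3 TPS lines were compared with 3 EPS lines with edgeR 4.0.16 (R 4.3.3): TMM scaling, filterByExpr (minimum count 10, minimum total 15) and the quasi-likelihood test, with Benjamini-Hochberg adjustment over all tested genes. The authors used DESeq2, and DESeq2 1.42.0 was run as an alternative. Standard errors are the log2 fold change divided by the square root of F. CPM are counts divided by the TMM-scaled library total, and TPM are counts per exonic length scaled to a common total. Ratios took a pseudocount of 0.5. On simulated counts, 17172 genes were tested in all. Of the 200 that were changed 4-fold, 94% were called, and 11 of the unchanged genes were called.

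The genes named were all 7 members, listed pathway genes that were called or encode a receptor, co-receptor, SMAD or partner, the 5 genes most like Nodal and Lefty1, and at most 4 genes of each marker list. Inhba, Fstl3, Gdf1, Cer1, Mixl1, T, Pdgfra, Krt8, Krt18, Tfap2c and Hand1 were named after their values were seen. Members and lists were chosen by name with earlier results of these data known. Other settings were another normalization, no filter, DESeq2, the 12 libraries as samples, a single technical replicate, the line number as a block and leaving out each line.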

Additional observations from a re-analysis of the deposited data

How the results depend on the processing

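Gdf3 was called lower under every alternative run. Lefty1 and Lefty2, which did not pass in the main edgeR test, passed with DESeq2 (1.48, adjusted p = 0.00879, and -1.29, adjusted p = 0.0140), without a filter (1.46, 0.00527, and -1.31, 0.00498) and with the 12 libraries taken as samples (1.50, 0.00458, and -1.24, 0.00784, a setting in which technical replicates count as independent). Members called were then 2 higher and 2 lower in each of these settings, in which more of all genes were called too: 3445 higher and 1664 lower with DESeq2, 3290 and 1535 without a filter and 4067 and 3610 with 12 libraries, against 2509 and 1282 in the main test. Pathway genes called higher, 3 in the main test, were 7 with DESeq2, 9 with library size alone, 5 with upper-quartile scaling, 8 without a filter, 15 with 12 libraries and 6 with technical replicate 1 alone, beside 2987 of all genes with library size alone, 2688 with upper-quartile scaling and 2000 with technical replicate 1. All genes called lower, 1282 in the main test, were 745 with library size alone, which moved the median log2 fold change of all genes from 0.00 to 0.14.

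With the line number as a replicate block, Inhbb was 1.67 (adjusted p = 0.0738), Lefty1 was 1.62 (adjusted p = 0.0417) and 1714 genes were higher and 721 lower, all in edgeR. The calls of Tgfbr2 (adjusted p = 0.0606), Tgif1 (0.0552) and Pmepa1 (0.103) were lost with the block in edgeR. Mixl1 was low, at 0.350, 3.06 and 2.32 CPM in TPS lines 1 to 3. In EPS lines 1 to 3 it was at 0, 0.265 and 0.313 CPM. It was thus higher in every TPS line, but TPS line 1 was only just above EPS line 3. Mixl1 had a log2 fold change of 3.26 and did not pass the main edgeR test (adjusted p = 0.0628). It passed with the block (adjusted p = 0.0289 by edgeR), with DESeq2 (adjusted p = 0.00305) and in edgeR without TPS line 1. The deviations of same-numbered lines correlated at 0.02, -0.12 and 0.04. With 3 lines in each group and no origin in the labels, this cannot settle whether same-numbered lines are related.

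Leaving out one line gave log2 fold changes of 0.15 to 0.59 for Nodal, -1.35 to -1.12 for Gdf3, 1.31 to 1.93 for Inhbb, 1.11 to 2.13 for Lefty1, -1.68 to -0.94 for Lefty2, 0.09 to 0.40 for Acvr2b and -0.51 to 0.09 for Smad7, whose sign turned in 2 fits (0.0231 and 0.0901). Members called ranged from 0 to 2 higher and from 1 to 2 lower, pathway genes from 1 to 4 higher and 4 to 7 lower, and all genes from 1617 to 2234 higher and 493 to 1047 lower. The cause of these shifts was not tested.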

Other observations

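Lineage lists beside the pathway genes gave mixed counts. Over all tested genes, 14.4% were called higher and 7.34% lower. Of 7 genes of the formative epiblast, 4 were called higher in TPS lines, among them Dnmt3a (322 ± 166 against 75.7 ± 16.2 CPM, SD, n = 3 each), and the summed level of the list was highest in TPS line 3, the line with the most Nodal and Lefty1 of all 6 lines and the most Smad7 among TPS lines. Most of that sum was Dnmt3a (513 CPM) and Dnmt3b (332 CPM, not called between groups), and Otx2, at 8.74 CPM in TPS line 3 and 20.3 CPM in EPS line 2, had a log2 fold change of -0.36 and was not called. Of 8 tested primitive endoderm genes, 4 were higher, Gata6, Sox17 and Pdgfra among them, and Lama1 was lower. Pdgfra was at 49.1, 12.5 and 31.2 CPM in TPS lines 1 to 3 and at 2.48, 6.15 and 8.37 CPM in EPS lines 1 to 3. Its lines followed the order of the summed fibroblast level, and the part of fibroblast RNA was not tested. The summed level of the primitive endoderm list went the other way, 90.7 to 95.0 CPM in TPS and 127.3 to 188.8 CPM in EPS lines. Lama1 was at 38.4 ± 10.8 against 136.0 ± 35.4 CPM (SD, n = 3 each). Of 7 tested trophectoderm genes, Cdx2 and Gata3 were higher, and neither keratin gene of the list passed the test. The summed level was 602 CPM in TPS line 2 and 103 to 219 CPM in the other 5 lines, of which Krt8 and Krt18 made up 243 and 198 CPM in TPS line 2. Without these keratins the list summed to 161 CPM in that line and to 90.2 to 159.8 CPM in the other 5, most of it Tfap2c, while Hand1 was at 12.7 CPM in TPS line 2 and at most 1.72 CPM in the other 5. TPS line 2 was the TPS line with the least Nodal, Lefty1, Lefty2, Inhbb and Smad7.

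A mesendoderm target gene also differed within the TPS group. T (Brachyury) was at 1.95, 17.0 and 29.6 CPM in TPS lines 1 to 3 and at 7.83, 6.80 and 10.5 CPM in EPS lines 1 to 3. It did not pass the test between groups (log2 fold change 0.95, adjusted p = 0.407 by edgeR), except when TPS line 1 was left out, and its log2 fold change lay between 0.17 and 1.47 over the 6 fits without a line. T, Pdgfra, Krt8, Krt18, Tfap2c and Hand1 were named after their values were seen.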
